A study of Mus musculus with 9 samples.

Results

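Neurexins, neuroligins and LRRTM proteins form adhesion bridges across the synaptic cleft, and 9 genes of these families were examined in ribosome-associated RNA of parvalbumin interneurons (PV INs) of the mouse hippocampus. They were taken by name: the neurexins Nrxn2 and Nrxn3, the neuroligins Nlgn1, Nlgn2 and Nlgn3, and the LRRTM genes Lrrtm1, Lrrtm2, Lrrtm3 and Lrrtm4. The members are 9 of the 37620 gene identifiers in the files, and all 9 passed the filter on low counts (at least 1 CPM, a count scaled to library size, in at least 1 sample), which left 15069 genes to test. Every mouse was PV-Cre; Rpl22HA/HA, in which Cre made in cells that express parvalbumin switches on an HA-tagged ribosomal protein, so that precipitating the tag collects the ribosomes of these cells with their bound RNA. Mice that were 2 months old received a lentivirus in the dentate gyrus (DG), and CA3/CA2 tissue was collected 2 weeks later. The virus carried either a non-targeting hairpin (shNT, 5 samples) or a hairpin against Ablim3 (shRNA, 4 samples), each hairpin marked with GFP, and each sample pooled 6 mice. Ablim3 encodes an actin-binding protein of granule cell mossy fiber terminals, and its loss there was used to raise mossy fiber contacts onto PV INs. The question for the adhesion genes is whether their ribosome-associated RNA in PV INs differed between the groups.

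Neurexins sit on the presynaptic side. They are made as long and short forms from separate start sites of the same gene, and bind neuroligins, LRRTM proteins and secreted ligands across the cleft. Neuroligins and LRRTM proteins sit on the postsynaptic side, where neuroligin 1 and the LRRTM proteins are known for excitatory synapses, neuroligin 2 for inhibitory synapses and neuroligin 3 for both. A PV IN can carry both sets, since it receives mossy fiber and other inputs and itself forms inhibitory synapses on pyramidal neurons.

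Total counts on genes ran from 19680352 to 34578837 in shNT and from 18281719 to 30421093 in shRNA. Reads outside annotated exons made up 9.76 to 11.3% of unique reads in 4 shNT samples and 18.6% in shNT sample 2. They made up 12.4 to 19.8% in shRNA samples 1 to 3 and 27.2% in shRNA sample 4. Summed PV IN markers (10 of 10 detected) spanned 5124 to 8356 CPM in shNT and 3025 to 7328 CPM in shRNA. None of the 10 had a positive fold change, and their median on the log2 scale was −0.38. Pvalb was present throughout, at 678 to 1375 CPM in shNT (mean 998) and 310 to 705 CPM in shRNA (mean 526). Its FDR, 0.0678 by the edgeR quasi-likelihood test, was above 0.05. Summed markers of astrocytes (7 of 7 detected) spanned 1015 to 1433 CPM in shNT and 1329 to 5170 CPM in shRNA, the highest in shRNA sample 4. Summed markers of CA3 and CA2 pyramidal neurons (6 of 6 detected) spanned 545 to 1382 CPM in shNT and 1432 to 1805 CPM in shRNA, with no overlap. No marker of these or the other cell types examined was at 0 in any sample. In bulk samples, fewer cells of a type and less RNA per cell cannot be told apart. Ablim3 was at 12.1 to 22.6 CPM in shNT and 13.7 to 21.7 CPM in shRNA, and since the virus was placed in DG, its level in a CA3/CA2 pulldown does not check the knockdown.

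None of the 9 adhesion genes was called, which required both an FDR under 0.05 and a 1.5-fold difference (edgeR quasi-likelihood test, Benjamini-Hochberg adjustment over 15069 genes). Across all genes tested, 264 passed the same call, which is 1.75%. Log2 fold changes of the members, shRNA over shNT, ran from −0.43 for Nlgn2 to 0.43 for Nlgn1. The fold change was positive for 6 members and negative for 3, with a median of 0.15, beside a median of 0.11 over all genes tested, of which 57.9% were positive. At an unadjusted p under 0.05 there were 2 of 9 members, Nlgn1 and Nlgn2, beside 34.1% of all genes. For no member were all samples of 1 group above all samples of the other, which held for 15.6% of all genes.

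Start windows are shown for 4 members that stand for the patterns below: Nrxn3 and Lrrtm1, which varied together over the 9 samples, Nlgn2, the neuroligin with a negative fold change, and Lrrtm4, the member of lowest level. Each holds the 250 bases before a RefSeq transcript start of the GRCm38.p6 table, written 5′ to 3′ on the strand of the gene. Each matched its own chromosome in mm9, the genome of the counts, exactly and once, and other chromosomes were not searched. Nrxn3 is shown at its downstream start, where shorter transcripts begin (chr12:91050673-91050922, plus strand). Capitals mark matches on either strand to TATAAA, searched as the TATA box. They also mark matches on either strand to GGGCGG, searched as the GC box, and no window shown held both.
Nrxn3: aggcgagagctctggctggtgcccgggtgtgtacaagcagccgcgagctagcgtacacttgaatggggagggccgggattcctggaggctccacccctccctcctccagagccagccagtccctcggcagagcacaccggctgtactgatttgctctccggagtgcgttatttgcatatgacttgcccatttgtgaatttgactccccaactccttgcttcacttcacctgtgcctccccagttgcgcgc
Lrrtm1: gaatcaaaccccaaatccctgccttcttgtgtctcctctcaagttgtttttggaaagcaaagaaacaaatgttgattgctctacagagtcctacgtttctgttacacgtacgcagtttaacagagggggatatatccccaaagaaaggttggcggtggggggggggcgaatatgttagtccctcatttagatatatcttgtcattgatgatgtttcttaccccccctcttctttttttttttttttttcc
Nlgn2: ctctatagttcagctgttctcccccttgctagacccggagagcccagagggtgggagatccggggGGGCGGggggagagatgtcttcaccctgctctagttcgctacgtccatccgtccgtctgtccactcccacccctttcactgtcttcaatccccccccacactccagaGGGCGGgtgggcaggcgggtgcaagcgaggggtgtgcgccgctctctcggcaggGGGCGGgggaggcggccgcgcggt
Lrrtm4: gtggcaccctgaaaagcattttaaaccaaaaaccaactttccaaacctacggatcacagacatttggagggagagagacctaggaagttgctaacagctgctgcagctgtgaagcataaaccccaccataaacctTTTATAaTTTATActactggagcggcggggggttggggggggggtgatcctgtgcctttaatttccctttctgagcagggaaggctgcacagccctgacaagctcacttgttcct
The Lrrtm1 window is chr6:77192221-77192470 (plus strand), the Nlgn2 window chr11:69651287-69651536 (minus strand) and the Lrrtm4 window chr6:79968621-79968870 (plus strand). The Nlgn2 window is the richest in CpG of the 4, with 18 CpG and 67.6% GC, and holds 3 GC boxes. The Nrxn3 window has 12 CpG and the Lrrtm1 window 5, neither with a match to these motifs, and the Lrrtm4 window has 3 CpG and 2 adjoining TATA matches. Nrxn3 and Lrrtm4 have further starts that are not shown. The other Lrrtm4 window has 8 CpG and no TATA match, and the Nrxn3 windows not shown have 2 and 5 CpG. Of 32851 mouse windows of this length, 32.7% hold a GC box and 12.4% a TATA match, and the quartiles of the CpG count are 2, 6 and 16. The full cAMP response element TGACGTCA, found in 1.55% of the windows, was in none of the 4. These are matches of letters only, and nothing about binding was measured.

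On the presynaptic side, Nrxn3 (ENSMUSG00000066392, mm9 chr12:89961320-91573375, plus strand) was, per length, below only Lrrtm1 among the members. Its shNT samples 1 to 5 were at 345, 217, 400, 304 and 257 CPM, and its shRNA samples 1 to 4 at 266, 403, 383 and 186 CPM. The groups lay over one another: the lowest value belonged to shRNA sample 4 and the next lowest to shNT sample 2, in which 27.2 and 18.6% of unique reads lay outside exons. In shRNA sample 1, at 266 CPM, 19.8% of unique reads lay outside exons, more than in shNT sample 2. The mean log2 CPM of PV IN markers was also lowest in shRNA sample 4 and next lowest in shNT sample 2 (−1.27 and −0.465, relative to the shNT mean). Nrxn3 averaged 305 ± 72.2 CPM in shNT (SD, n = 5) and 309 ± 102 CPM in shRNA (SD, n = 4), and the log2 fold change was 0.02 ± 0.25 (SE; FDR = 0.958, edgeR quasi-likelihood test), with a sign that turned to −0.02 with the size factors of DESeq2. Leaving out 1 sample gave log2 fold changes from −0.16 (without shRNA sample 3) to 0.20 (without shRNA sample 4), and a fit with reads outside exons as a covariate gave 0.415 ± 0.144 (SE; FDR = 0.112, edgeR quasi-likelihood test), the highest of 23 alternative fits.

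Nrxn2 (ENSMUSG00000033768, chr19:6418731-6544169, plus strand), a second neurexin gene, was at 70.1, 49.7, 66.4, 41.4 and 52.4 CPM in shNT samples 1 to 5 and at 65.2, 66.5, 70.4 and 64.6 CPM in shRNA samples 1 to 4. The shRNA samples sat close together near the top of the wide shNT range. Nrxn2 averaged 56.0 ± 11.9 CPM in shNT (SD, n = 5) and 66.7 ± 2.59 CPM in shRNA (SD, n = 4), with a log2 fold change of 0.25 ± 0.16 (SE; FDR = 0.278, edgeR quasi-likelihood test). The log2 fold change was 0.0872 without shNT sample 4, 0.142 without shNT sample 5, 0.141 without shRNA sample 3 and 0.0869 in the YTa31 samples alone, the 6 samples whose names begin so. It was 0.344 without shNT sample 1, 0.313 with reads outside exons as a covariate and −0.0738 with an offset for gene length. With limma voom and sample quality weights, Nrxn2 was at 0.413 (FDR = 0.0274), under the 1.5-fold minimum, and was not called. Of its exon length, 7.3% overlaps Gm14964, Gm14967 and Slc22a12, and counting ignored strand, so reads there cannot be assigned by gene.

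**Figure D1:**
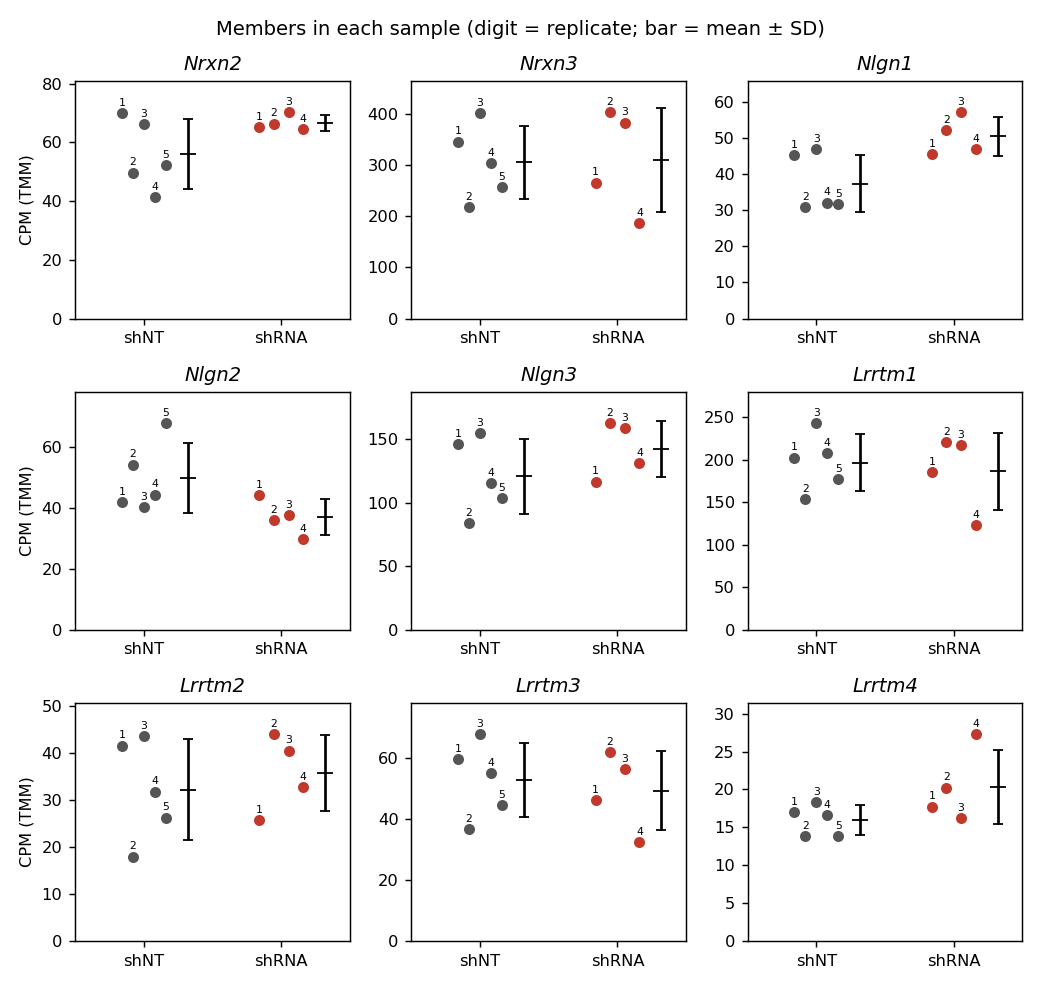
Level of each adhesion gene in CPM normalized with TMM (vertical axes from 0), with a point for each shNT (grey) and shRNA (red) sample, its replicate number above it, and the mean ± SD beside it. The groups overlap in all 9 panels, with Nlgn1 higher on average and Nlgn2 lower on average in shRNA.

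Of the postsynaptic neuroligins, Nlgn1 (ENSMUSG00000063887, chr3:25330733-26032656, minus strand) had the largest positive fold change of the members. It was at 45.1, 30.9, 46.9, 32.1 and 31.6 CPM in shNT samples 1 to 5 and at 45.4, 52.2, 57.1 and 46.8 CPM in shRNA samples 1 to 4. Each shRNA value exceeded 4 of the 5 shNT values, and shNT sample 3 lay just above shRNA samples 1 and 4. Nlgn1 averaged 37.3 ± 7.96 CPM in shNT (SD, n = 5) and 50.4 ± 5.35 CPM in shRNA (SD, n = 4), and the log2 fold change of 0.43 ± 0.17 (SE) did not pass (FDR = 0.101, edgeR quasi-likelihood test). Leaving out 1 sample gave log2 fold changes from 0.285 (without shRNA sample 3) to 0.509 (without shNT sample 1). With limma voom and sample quality weights, Nlgn1 was called (log2 fold change 0.59, FDR = 0.00468), and it was the 1 member called by that test, which called 19.4% of all genes. With an offset for gene length the log2 fold change of Nlgn1, whose gene spans 701924 bases, was 0.02.

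Nlgn2 (ENSMUSG00000051790, chr11:69636624-69651286, minus strand), known for its place at inhibitory synapses with gephyrin, was on average lower in shRNA. It was at 41.7, 54.1, 40.2, 44.3 and 67.7 CPM in shNT samples 1 to 5 and at 44.1, 35.8, 37.6 and 29.8 CPM in shRNA samples 1 to 4. The lowest 3 of all 9 values were shRNA samples, and shRNA sample 1 lay among the shNT values. Nlgn2 averaged 49.6 ± 11.5 CPM in shNT (SD, n = 5) and 36.8 ± 5.88 CPM in shRNA (SD, n = 4), and the log2 fold change of −0.43 ± 0.18 (SE) did not pass (FDR = 0.128, edgeR quasi-likelihood test). Its sign was negative in all 23 alternative fits, between −0.59 and −0.25, and none of them called it.

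Nlgn3 (ENSMUSG00000031302, chrX:98491178-98521302, plus strand) was on average the neuroligin of highest level per length. It was at 146, 84.0, 155, 116 and 104 CPM in shNT samples 1 to 5 and at 117, 163, 159 and 131 CPM in shRNA samples 1 to 4. The ranges overlapped over most of their width, with shNT sample 2 lowest. The log2 fold change was 0.24 ± 0.20 (SE; FDR = 0.400, edgeR quasi-likelihood test). It was 0.100 without shRNA sample 3, 0.105 without shNT sample 5, 0.129 without shNT sample 2, 0.150 without shNT sample 4 and 0.464 with reads outside exons as a covariate, and was positive in all 23 alternative fits. With limma voom, Nlgn3 was at 0.359 (FDR = 0.0462), under the 1.5-fold minimum, and was not called. Of its exon length, 6.8% overlaps Med12, a Mediator subunit gene that was itself at 3.93 CPM on average in shNT and 12.0 CPM in shRNA (FDR = 0.0547, edgeR quasi-likelihood test).

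Within a sample, the neuroligins can be set against each other per length of exon, as RPKM, which scales CPM by exon length. The log2 ratio of Nlgn2 to Nlgn1 RPKM was −0.52, 0.40, −0.63, 0.06 and 0.69 in shNT samples 1 to 5 and −0.45, −0.95, −1.01 and −1.06 in shRNA samples 1 to 4. The ratio was below the shNT range in 3 of 4 shRNA samples, and shRNA sample 1 lay within it. The mean log2 ratio was −0.00 ± 0.57 (SD, n = 5) in shNT and −0.87 ± 0.28 (SD, n = 4) in shRNA, a difference of −0.87, or −0.80 without shRNA sample 4 and −0.56 in the YTa31 samples alone.

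The share of Nlgn1 in the summed RPKM of the 3 neuroligins was 33.5, 29.4, 33.8, 28.9 and 25.6% in shNT samples 1 to 5 and 36.4, 36.3, 38.5 and 38.6% in shRNA samples 1 to 4. Here the groups did not overlap, but this measure was chosen after its values were seen and is given with no test. The mean share of Nlgn1 was 30.2 ± 3.47% (SD, n = 5) in shNT and 37.5 ± 1.28% (SD, n = 4) in shRNA, and that of Nlgn2 31.1 ± 8.79% and 20.8 ± 3.91%. The share of Nlgn3 was 38.7 ± 5.83% and 41.8 ± 3.36%. The shares of Nlgn2 and of Nlgn3 each overlapped between the groups. Pyramidal neuron markers also lay wholly higher in shRNA, as given above, and their part in the neuroligin shares was not tested.

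**Figure D2:**
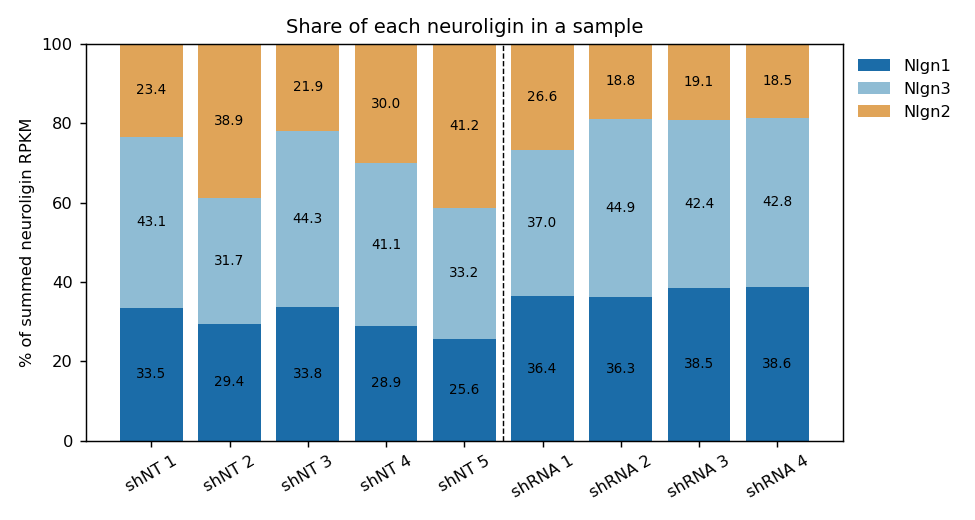
Share of Nlgn1, Nlgn3 and Nlgn2 in the summed neuroligin RPKM (percent, stacked from 0 to 100) in each sample, with shNT left and shRNA right of the dashed line. The Nlgn1 share runs from 25.6 to 33.8% in shNT and from 36.3 to 38.6% in shRNA, and the Nlgn2 share is lowest in shRNA sample 4.

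The LRRTM genes encode postsynaptic proteins with leucine-rich repeats that bind neurexins or, for LRRTM3 and LRRTM4, heparan sulfate on neurexins and glypicans. Lrrtm1 (ENSMUSG00000060780, chr6:77192683-77207785, plus strand) was at 202, 153, 243, 207 and 177 CPM in shNT samples 1 to 5 and at 185, 221, 217 and 123 CPM in shRNA samples 1 to 4. All shRNA values but that of sample 4 lay inside the shNT range. Its log2 fold change was −0.08 ± 0.20 (SE; FDR = 0.801, edgeR quasi-likelihood test), and it was 0.07 without shRNA sample 4.

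Lrrtm3 (ENSMUSG00000042846, chr10:63391220-63553025, minus strand) was at 59.5, 36.7, 67.6, 54.8 and 44.5 CPM in shNT samples 1 to 5 and at 46.0, 61.9, 56.3 and 32.4 CPM in shRNA samples 1 to 4. As for Lrrtm1, shRNA sample 4 was the lowest and shNT sample 3 the highest. Its log2 fold change was −0.10 ± 0.22 (SE; FDR = 0.768, edgeR quasi-likelihood test), or 0.05 without shRNA sample 4. Lrrtm2 (ENSMUSG00000071862, chromosome 18), the shortest gene of the 9, ranged from 17.9 to 43.7 CPM in shNT and from 25.8 to 44.0 CPM in shRNA. Its log2 fold change was 0.15 ± 0.26 (SE; FDR = 0.694, edgeR quasi-likelihood test), and leaving out 1 sample moved it between −0.00117 (without shNT sample 2) and 0.258 (without shNT sample 1).

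Lrrtm4 (ENSMUSG00000052581, chr6:79968871-80760137, plus strand) was at 17.0, 13.9, 18.4, 16.6 and 13.9 CPM in shNT samples 1 to 5 and at 17.7, 20.3, 16.2 and 27.3 CPM in shRNA samples 1 to 4. Only shRNA samples 2 and 4 were above every shNT value. The log2 fold change was 0.35 ± 0.18 (SE; FDR = 0.179, edgeR quasi-likelihood test). It was 0.213 without shNT sample 5 and 0.17 without shRNA sample 4, the sample with the most reads outside exons and the highest astrocyte markers. Of the exon length of Lrrtm4, 25.1% overlaps Gm4409, and reads there cannot be assigned by gene.

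**Figure D3:**
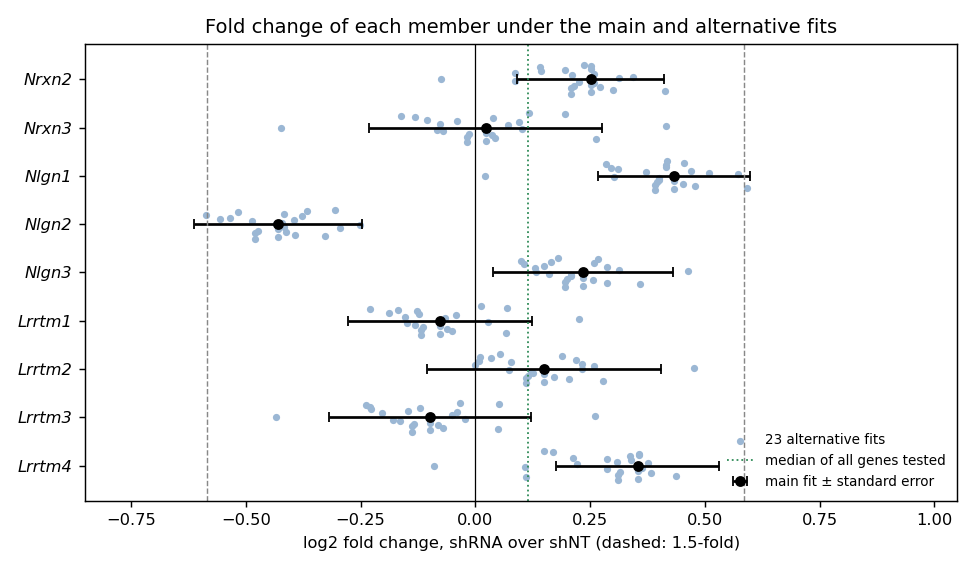
Log2 fold change of each member, shRNA over shNT, with its SE (black) and the values of 23 alternative fits (blue), the 1.5-fold limits (dashed) and the median of all genes tested (dotted). Nlgn1 and Nlgn3 stay above 0 and Nlgn2 below 0 in each fit, while the other 6 members have values on both sides, Nrxn2, Lrrtm2 and Lrrtm4 in 1 fit each.

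The LRRTM genes Lrrtm1, Lrrtm2 and Lrrtm3 lie within the α-catenin genes Ctnna2, Ctnna1 and Ctnna3, on the opposite strand. Because counting ignored strand, the hosts were examined. Ctnna2 was at 134 ± 48.3 CPM (SD, n = 5) in shNT and 146 ± 52.9 CPM (SD, n = 4) in shRNA, and Ctnna3 was at 0.61 to 3.52 CPM. Ctnna1 was at 22.7 to 35.3 CPM in shNT, at 25.1 to 33.1 CPM in shRNA samples 1 to 3 and at 87.3 CPM in shRNA sample 4, where Lrrtm2 was at 32.8 CPM. None of the hosts was called (FDR = 0.794, 0.251 and 0.216 for Ctnna2, Ctnna3 and Ctnna1, edgeR quasi-likelihood test). The annotated exons of these hosts do not overlap those of the LRRTM genes. Reads from unspliced host RNA that fall on LRRTM exons would still be counted for the LRRTM gene, and their number was not measured.

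Levels can be ordered between genes only per length. In shNT, Lrrtm1 was highest at 64.8 ± 11.1 RPKM (SD, n = 5), followed by Nrxn3 at 24.1 ± 5.72 and Lrrtm3 at 12.4 ± 2.87 RPKM. Nlgn3 followed at 11.0 ± 2.69, Nlgn2 at 8.58 ± 1.98 and Nlgn1 at 8.56 ± 1.83 RPKM. Lrrtm2 was at 5.69 ± 1.89, Nrxn2 at 4.05 ± 0.864 and Lrrtm4 at 2.59 ± 0.325 RPKM.

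Lrrtm1 was above Nrxn3, Nrxn3 above Lrrtm3, Nlgn1 above Lrrtm2, and Nrxn2 above Lrrtm4 in 9 of 9 samples. The other neighbours in the order did not keep it throughout. Lrrtm3 was above Nlgn3 in 5 of 5 shNT samples and in 1 of 4 shRNA samples, and Nlgn2 was above Nlgn1 in 3 of 5 shNT samples and in 0 of 4 shRNA samples. In shRNA the mean levels of Nlgn1 and Nlgn2 were 11.6 ± 1.23 and 6.37 ± 1.02 RPKM (SD, n = 4). The RPKM divides by the length of all annotated exons of a gene, so a gene with many rarely used exons is placed too low. That length includes exon shared with other genes, where reads cannot be assigned: 25.1% for Lrrtm4, 7.3% for Nrxn2 and 6.8% for Nlgn3. These genes can be placed too low by it, and the last place of Lrrtm4 is uncertain.

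**Figure D4:**
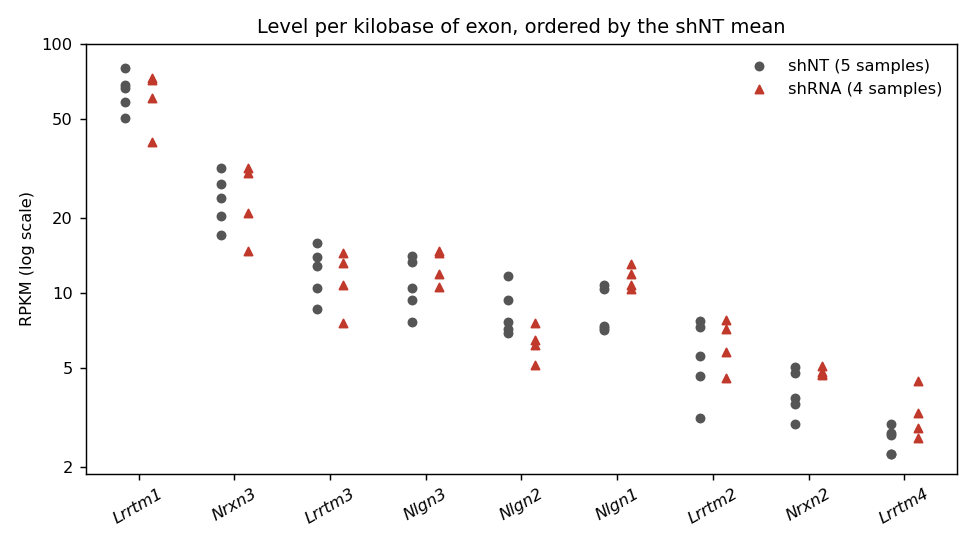
Level per kilobase of annotated exon (RPKM, log scale) for each member in the 5 shNT (grey circles) and 4 shRNA (red triangles) samples, in the order of the shNT means. Lrrtm1 lies highest and Lrrtm4 lowest in every sample, while the points of Nlgn2 and Nlgn1 interleave in shNT. Lrrtm4 can be placed too low, since 25.1% of its exon length is shared with Gm4409.

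From sample to sample some members varied together, within and across families. Over the 9 samples, log2 CPM of Nrxn3 was most alike to that of Lrrtm3 (Pearson r = 0.98) and Lrrtm1 (r = 0.96), and Lrrtm1 was most alike to Lrrtm3 (r = 0.97), with values lowest in shRNA sample 4 and shNT sample 2. Without those 2 samples the order changed: over 7 samples Nrxn3 was most alike to Lrrtm2 (r = 0.97) and Nlgn3 (r = 0.96), then to Lrrtm3 (r = 0.93) and Lrrtm1 (r = 0.92), and r of Lrrtm1 to Lrrtm3 was 0.95. Nlgn3 was most alike to Lrrtm2 over the 9 samples (r = 0.97, or 0.94 over 7). Nlgn1 was about as alike to Nrxn2 (r = 0.89, or 0.88 over 7 samples) as to Nlgn3 (r = 0.88, or 0.87).

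Nlgn2 ran opposite to Lrrtm4 (r = −0.87, or −0.83 over 7 samples), Nlgn1 (−0.77, or −0.80) and Nlgn3 (−0.70, or −0.85). Its r to Nrxn3, Lrrtm1 and Lrrtm3 was −0.16, 0.04 and −0.10 over the 9 samples and −0.81, −0.75 and −0.74 over 7, so that over the 7 samples it was negative to every other member. These values are descriptions with no test, over samples that differ in depth, in reads outside exons and in PV IN markers. The mean log2 CPM of PV IN markers, relative to the shNT mean, was −0.465 in shNT sample 2 and 0.04 to 0.17 in the other shNT samples. In shRNA samples 1 to 4 it was −0.417, −0.018, −0.186 and −1.27. The part of PV IN content in the shared pattern was not tested. Among all genes with a mean of at least 10 CPM, those most alike to each member were chosen for the highest r. They included Lrrc4 (r = 0.996) and Ppargc1a (r = 0.995) for Lrrtm3, Gatad2a (r = 0.992) and Bcl2l13 (r = 0.991) for Nrxn3, and Zc3h18 (r = 0.994) and Mtor (r = 0.993) for Nlgn1.

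**Figure D5:**
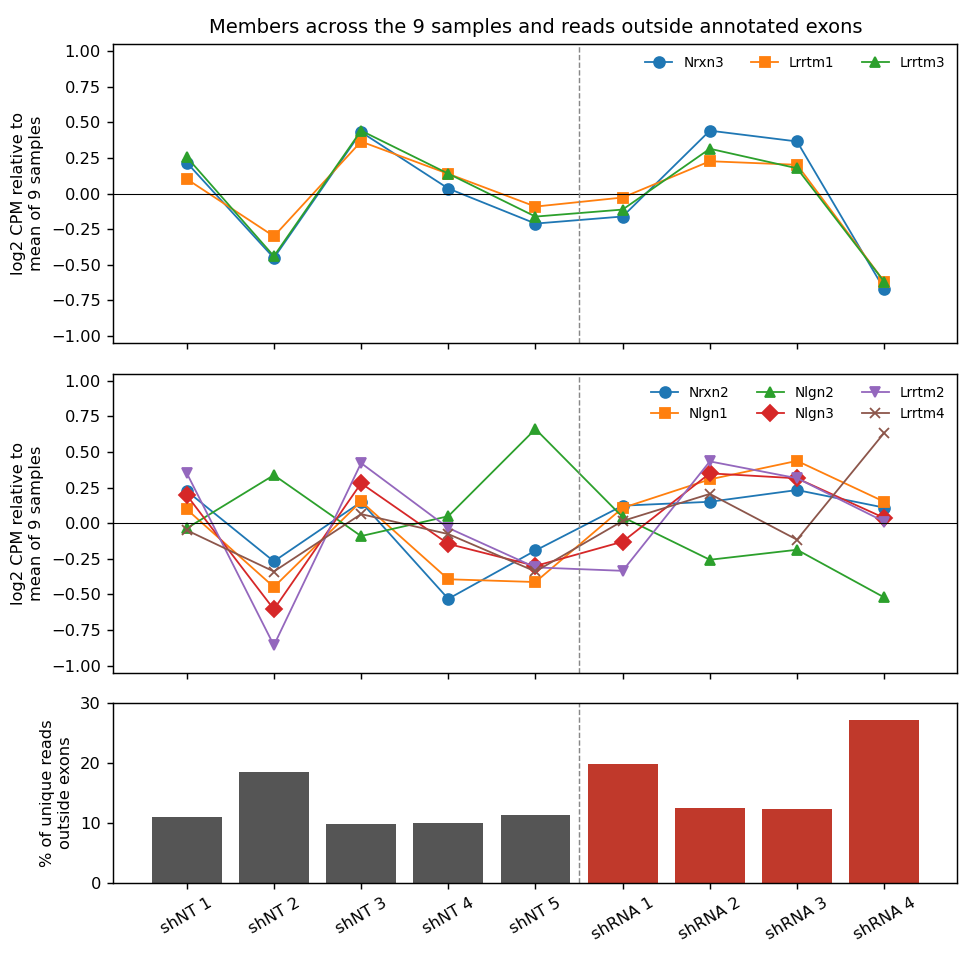
Log2 CPM of each member relative to its mean over the 9 samples (upper panels), and the percent of unique reads outside annotated exons (bars, lowest panel). Nrxn3, Lrrtm1 and Lrrtm3 dip together in shNT sample 2 and shRNA sample 4, which have 18.6 and 27.2% of reads outside exons, while Nlgn2 is high in shNT sample 2. PV IN markers, not drawn, were also lowest in these samples (mean log2 CPM −0.465 and −1.27, relative to the shNT mean). In shRNA sample 1, with 19.8% of reads outside exons, Nrxn3, Lrrtm1 and Lrrtm3 are only at −0.16, −0.03 and −0.11.

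The wider network of partners was read from a list of 60 genes that bind or regulate these proteins or bridge the cleft in other ways, of which 58 were tested. Of these, 1 was called higher and 0 lower, beside 1.74% of all genes called higher. An unadjusted p under 0.05 (edgeR quasi-likelihood test) was found for 20 of the 58, beside 34.1% of all genes, so the partners did not stand out by it. The fold change was positive for 49 (84.5%) and negative for 9, with a median log2 fold change of 0.37. Over all genes tested, 57.9% were positive and the median was 0.11. All shRNA samples were above all shNT samples for 7 of the 58, beside 8.97% of all genes.

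The called partner was Ntng1, netrin-G1, a presynaptic adhesion protein. It was at 2.81, 2.66, 2.92, 2.52 and 2.29 CPM in shNT samples 1 to 5 and at 5.12, 4.80, 7.17 and 8.03 CPM in shRNA samples 1 to 4. Every shRNA value was above every shNT value, at a low level in both groups. Ntng1 rose by 1.25 ± 0.22 on the log2 scale (SE; FDR = 0.0403, edgeR quasi-likelihood test). Lrrc4c, its postsynaptic receptor, was on the list and was not called. Without shNT sample 3, 4 or 5 or shRNA sample 1 or 3, no partner was called, and no gene of the whole table was called higher.

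The partners with the largest positive change among those with a mean of at least 10 CPM were Il1rap, Shank2 and Gpc5, and none was called. Il1rap, a synaptic organizer that pairs with PTPδ, averaged 14.6 CPM in shNT and 44.3 CPM in shRNA, without overlap (log2 fold change 1.60 ± 0.37, SE; FDR = 0.0503, edgeR quasi-likelihood test). Shank2, a scaffold of excitatory postsynapses, averaged 90.4 and 235 CPM (FDR = 0.126, edgeR quasi-likelihood test), with values from 28.0 to 185 CPM within shNT. Gpc5, a glypican, averaged 10.1 and 25.5 CPM (FDR = 0.0730, edgeR quasi-likelihood test), and its shRNA values were 12.1, 13.7 and 16.7 CPM in samples 1 to 3 and 59.5 CPM in sample 4.

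Among partners with a mean of at least 10 CPM, the most negative fold changes were those of Cbln4, Nxph1 and Cadm1, none of which was called. Cbln4, a secreted ligand of neurexins, averaged 218 CPM in shNT and 149 CPM in shRNA (log2 fold change −0.55 ± 0.29, SE; FDR = 0.201, edgeR quasi-likelihood test). Nxph1, neurexophilin 1, a ligand of long neurexins and also one of the PV IN markers, averaged 526 and 393 CPM (FDR = 0.237, edgeR quasi-likelihood test). Cadm1, an immunoglobulin adhesion protein, averaged 405 and 348 CPM (FDR = 0.391, edgeR quasi-likelihood test). For both Cbln4 and Nxph1 the lowest value was in shRNA sample 4, at 66.6 and 213 CPM.

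By role, the secreted neurexin ligands had 3 positive and 3 negative fold changes among 6 tested. The transmembrane neurexin ligands had 7 positive of 8, the intracellular binders of neurexins 4 of 4, and those of neuroligins and LRRTM proteins 9 of 9. Of all genes tested, 57.9% were positive. The intracellular binders of neurexins had a median log2 fold change of 0.13, near the 0.11 of all genes tested. None of these lists had a called gene. Astrocyte, pyramidal neuron and nuclear-retained RNA lists had median log2 fold changes of 1.34, 0.75 and 1.25, and their part in the positive partners was not tested.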

How the data were processed

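Ribosome-associated RNA was sequenced (SMARTer v4 libraries) from 5 shNT and 4 shRNA samples of pooled mice. The authors aligned reads to mm9 with STAR, counted them per gene without strand with HTSeq 0.6.0, and deposited raw counts per sample. Names, positions and exon lengths came from the GENCODE annotation of mm9 (37205 of 37620 identifiers named). In R 4.3.3, genes reaching 1 CPM in 1 or more samples (15069 kept, 22551 removed) were normalized with TMM and tested with the quasi-likelihood test of edgeR 4.0.16, with group as the only term. Which edgeR test the study used is not given in the sources used here. Calls needed a Benjamini-Hochberg FDR under 0.05 and a 1.5-fold change. CPM and RPKM use TMM library sizes, and log2 CPM a prior count of 2. The common biological coefficient of variation, fitted over all genes tested, was 0.303. Totals ran from 18281719 to 34578837 counts, and the lowest count of a member in a sample was 302 (Lrrtm4). Counting error is therefore small beside that variation for the members. This does not hold for genes of low count such as Ctnna3, with 12 counts in its lowest sample. The methods were tested on simulated data.

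The members, lists and tests were chosen with earlier results of these data known. Named were all members, called partners and, since fewer than 3 were called, the 3 highest and 3 lowest partners with a mean of at least 10 CPM, the genes hosting LRRTM genes, and the 2 genes most alike to each member. Adgrl genes were matched by their older symbols. Med12 and the neuroligin shares were added after values were seen. Alternatives used limma 3.58.1 voom, DESeq2 1.42.0, other scalings, filters and blocks, offsets or covariates, and each sample left out. No source says whether the name sets YTa31 (6 samples) and YTa32 (3 samples) are batches. Whether samples came from separate rounds of injection is not stated, so p-values measure only the spread between these samples. RefSeq windows were matched to mm9 by sequence, and Nrxn2, Nlgn3 and Lrrtm2 had none used here.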

Additional observations from a re-analysis of the deposited data

How the results depend on the processing

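The number of members called was 0 in the main test and in 22 of 23 alternatives, and 1 (Nlgn1) with limma voom, so 0 of 9 says little about small changes: the FDR of Nlgn1 ran from 0.00468 to 0.915. The number of genes called was unstable. It was 262 higher and 2 lower in the main test. It was 1532 and 833 with DESeq2, 1688 and 542 with the likelihood ratio test, 2301 and 618 with limma voom, 501 and 14 with no filter, and 678 and 2 without both shNT sample 2 and shRNA sample 4. It was 0 and 0 with library size only, the YTa31 samples only, a gene length trend, or reads outside exons as a covariate. DESeq2 size factors and a block for the sets of names gave 1 lower, and at least 1 CPM in 4 samples gave 8 lower. Leaving out each sample gave 0 to 1007 higher and 0 to 410 lower, with 1007 higher without shNT sample 1, 481 without shNT sample 2, 142 without shRNA sample 4, and 0 without shNT sample 3, 4 or 5 or shRNA sample 1 or 3. Partners called were 8 with DESeq2 and with the likelihood ratio test, 21 with limma voom, 2 with no filter, with the name-set block or without both samples, 0 with library size only, YTa31 samples only, the length trend or the covariate, and 0 to 5 with each sample left out.

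Signs of log2 fold changes turned as follows. The length trend gave Nrxn2 −0.0738, Nrxn3 −0.424 and Lrrtm4 −0.0911. For Nrxn3, DESeq2 and its size factors each gave −0.0179, no filter −0.0134, the name-set block −0.0835, and leaving out samples −0.16 to 0.20, while the covariate gave 0.415. For Lrrtm1, limma voom gave 0.0674, the YTa31 samples 0.0283, the covariate 0.226, both samples left out 0.013, and leaving out samples −0.23 to 0.0679. Lrrtm2 ran from −0.00117 to 0.26 when samples were left out. Lrrtm3 was 0.0503 with limma voom, 0.261 with the covariate, and −0.24 to 0.0505 when samples were left out. The cause was not tested.

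Same-numbered samples of replicates 1, 2 and 4 did not deviate together (correlations −0.27, −0.64 and −0.18), while those of replicate 3 did (0.49). These correlations cannot settle whether the replicate numbers pair samples, and the main test did not pair them. With the replicate block 29 genes were called higher and 0 lower, with 0 partners and 0 members, and Nrxn3 was −0.0701.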

Other observations

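Both RefSeq starts of Nlgn1 in the GRCm38.p6 table lie before its first annotated mm9 exon, by 20252 and 198175 bases. Reads on exons near these starts would therefore not be counted for Nlgn1. The remaining genes most alike to members by Pearson r over the 9 samples were Sos1 (0.983) and 6430704M03Rik (0.967) for Nrxn2, Zrsr1 (0.987) and Zmat2 (0.982) for Nlgn2, Sel1l (0.992) and 1300001I01Rik (0.992) for Nlgn3, Pex3 (0.993) and Peli3 (0.991) for Lrrtm1, Abcd2 (0.987) and Ythdf3 (0.987) for Lrrtm2, and Lrrc16a (0.963) and Vars2 (0.954) for Lrrtm4. None of these genes was called by edgeR's quasi-likelihood test.

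Of the 8 groups of cell markers and nuclear-retained RNAs other than PV IN markers, whose 10 members all had negative fold changes, the median log2 fold change was positive in each. It was 0.77 for oligodendrocytes, 1.01 for oligodendrocyte precursors, 0.50 for endothelial cells, 0.16 for microglia and 0.70 for DG granule cells.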
